A study of Mus musculus with 77 samples.

Results

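The genes described are 10 genes known from reactive glia: Gfap, Vim, Nes, Lcn2, Serpina3n, Cp, Timp1, Fgf2, A2m and Steap4. They were chosen by name, and every probe whose listed transcript belongs to 1 of them was taken, which gave 13 of 55681 probes and 10 of 21154 named genes. The retinas came from C57BL/6 mice with oxygen-induced retinopathy (OIR), a model of retinopathy of prematurity, and from control mice. Whole litters with their nursing mothers were drawn by lot on postnatal day 7 to 75% oxygen (OIR) or 21% oxygen (control) and stayed there until P12 (postnatal day 12). Retinas were taken on P12, at the end of the oxygen exposure, or in room air on P17 and P28. Each age had 13 OIR mice, beside 12 controls at P12, 12 at P17 and 14 at P28. Both retinas of a mouse were pooled and hybridised on 1 array, beside a universal mouse reference RNA, which gave 77 arrays. The labels do not give the litter of a mouse, so mice of 1 litter count here as separate, and p-values are too small to the extent that littermates resemble each other.

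Müller cells and astrocytes are the macroglia of the retina. After injury, ischaemia or inflammation they become reactive: they raise intermediate filament proteins, and they make secreted acute-phase proteins, protease inhibitors and growth factors. In the retina, GFAP is normally a protein of the astrocytes beside the vessels, and its appearance in Müller cells is a widely used sign of retinal stress. Several of these genes are also active elsewhere: vimentin in vessel and connective tissue cells, nestin in progenitors and pericytes, and lipocalin 2 in neutrophils and macrophages.

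Each level below is a log2 ratio of retina over reference RNA for 1 array, so a value below 0 means less signal than in the reference. The reference has its own level of each gene, so levels of different genes cannot be ranked against each other. The labels put the retina in the Cy5 channel, but the rod genes Sag, Gnat1 and Pde6b were at least 4.18 higher in Cy3 than in Cy5 on the log2 scale on all arrays, and the deposited ratios have the same direction. The retina was therefore taken as Cy3, which turns every sign below against those labels. A dim spot has little left above background, so 2 scales were used. The first, called the offset ratio, adds 50 intensity units to both channels and pulls ratios of dim spots towards 0. The second is the authors' own ratio of processed signals, which keeps the full ratio but is noisier for dim spots. Unless stated otherwise, values are offset ratios, and fold changes of dim genes on that scale are understated. A gene with several probes is represented by its brightest probe.

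A probe is called detected here on an array where the scanner software marked its retina signal as well above background. Vim, Nes, Lcn2 and Cp were detected on all 77 arrays, Timp1 on 72, Gfap on 62, Serpina3n on 27, Fgf2 on 24, A2m on 8 and Steap4 on 0. The 32 arrays of 1 of the 4 scan days (scan day 4) detected 20913 to 34306 probes, against 13765 to 24707 on the other 45 arrays. Scan day 4 held 11 of 13 OIR and 9 of 14 control arrays of P28, but 2 and 5 of P17 and 2 and 3 of P12, so more detection on P28 cannot be told apart from scan day. All 5 rod genes checked and 8 of 10 Müller cell genes were detected on every array. The arrays measured whole retina, in which fewer cells of a type and less RNA per cell cannot be told apart.

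The promoters of 9 of the 10 genes were in the RefSeq table at hand (GRCm38.p6), and A2m is only named here. Stretches are shown for the 3 filament genes and for 3 genes of secreted proteins that had a motif. Of the factors that bind STAT and C/EBP motifs, the genes Stat3 and Cebpd are among the results below. No stretch shown holds a STAT match. Capitals mark a match in the 250 bases before the transcription start on either strand to a STAT motif (TTCNNNGAA), a C/EBP motif (TTGCNNAA), a hypoxia motif (ACGTG) or an AP1 motif (TGANTCA). Each line is 120 bases written 5′ to 3′ along the gene.
Gfap, chr11:102897201-102897320, minus strand: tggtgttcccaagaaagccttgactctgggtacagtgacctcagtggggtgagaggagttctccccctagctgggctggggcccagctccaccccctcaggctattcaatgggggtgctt
Vim, chr2:13574191-13574310, plus strand: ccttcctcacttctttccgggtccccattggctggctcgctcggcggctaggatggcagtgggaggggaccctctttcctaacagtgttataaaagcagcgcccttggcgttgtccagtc
Nes, chr3:87970973-87971092, plus strand: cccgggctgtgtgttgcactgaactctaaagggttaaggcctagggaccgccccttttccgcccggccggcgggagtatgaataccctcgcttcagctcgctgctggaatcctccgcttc
Lcn2, chr2:32387846-32387965, minus strand: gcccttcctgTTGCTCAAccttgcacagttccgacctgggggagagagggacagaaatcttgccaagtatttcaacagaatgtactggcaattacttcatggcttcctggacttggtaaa
Cp, chr3:19957129-19957248, plus strand: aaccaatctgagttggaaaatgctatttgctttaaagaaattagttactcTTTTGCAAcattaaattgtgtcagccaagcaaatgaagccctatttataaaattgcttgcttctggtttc
Timp1, chrX:20870046-20870165, plus strand: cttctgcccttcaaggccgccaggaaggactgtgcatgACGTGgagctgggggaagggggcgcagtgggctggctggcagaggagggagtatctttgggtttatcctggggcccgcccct
All but that of Lcn2, which begins 226 bases before the start site, end at that site, and that of Cp belongs to the downstream of 2 listed starts. The C/EBP match was found in Lcn2, Cp and Steap4 and in 9.56% of all 32851 promoters of the table. A gene was counted if any of its listed starts matched, while each percentage is of single promoters, so the 2 are not like measures. A STAT match was found in Steap4 alone of the 9 (7.02% of all), the hypoxia match in Timp1 (16.6% of all) and the AP1 match at the other start of Cp (6.75% of all). Gfap, Vim, Nes, Fgf2 and Serpina3n had none of the 4 within these bases. The motifs were chosen after the promoters had been seen, and a match is a string of letters, not a shown binding site.

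On P17, 5 days after the return to room air, most of the reactive glia genes were higher in OIR retinas. Of the 10 genes, 7 passed the test (limma, adjusted p under 0.05), all of them upward: Gfap, Vim, Nes, Lcn2, Cp, Timp1 and Fgf2. In the same comparison 1.14% of all probes passed, 0.81% upward. The median difference between OIR and control was 0.86 over the 10 genes and 0.001 over all probes. On P12 and on P28, 0 of the 10 passed, against 0.0216% and 0.0611% of all probes.

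**Figure D1:**
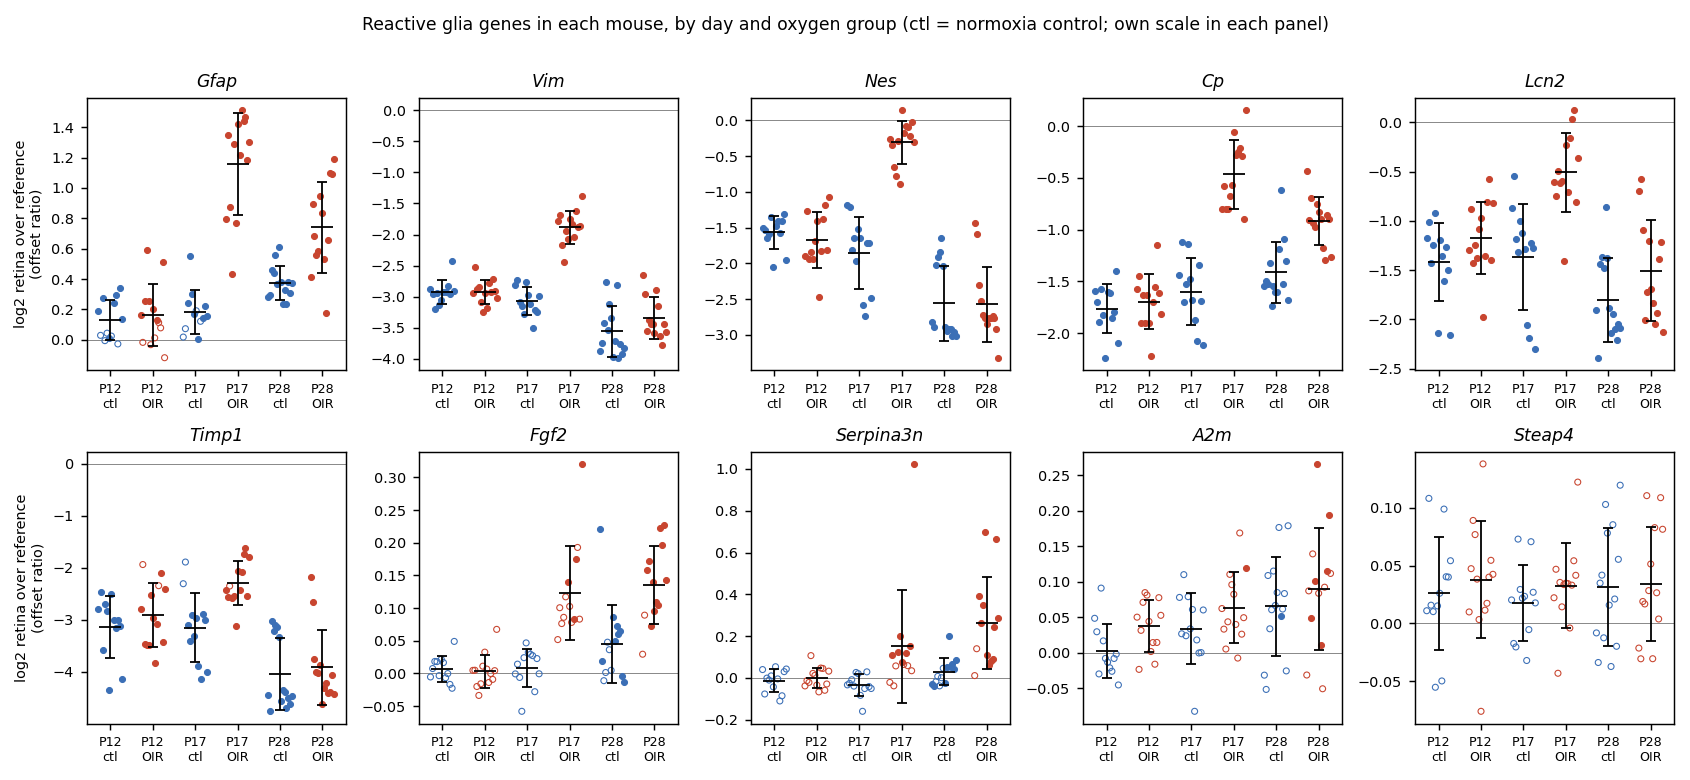
Log2 retina over reference (offset ratio, y axis) of the brightest probe of each gene, 1 point per mouse, in the control and OIR groups of P12, P17 and P28 (x axis), with the mean and SD of each group as bars, and filled where the probe was detected. The OIR mice of P17 lie above all controls of that day for Vim, Nes and Cp, while the groups of P12 lie over each other.

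The intermediate filament genes rose together. Vim, which encodes vimentin, the filament protein of Müller cells, ran from -3.50 to -2.73 in P17 controls with a median of -3.10. In P17 OIR mice it ran from -2.44 to -1.38 with a median of -1.87. Every OIR mouse lay above every control mouse. The difference was 1.19 (SE 0.097, 2.28-fold, adjusted p = 2.15e-08).

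Nes, which encodes nestin, a filament protein of progenitors that returns in reactive glia, had the largest difference of the 10 genes on this scale. P17 controls ran from -2.73 to -1.18 with a median of -1.71, and OIR mice from -0.89 to 0.14 with a median of -0.25. These groups did not overlap either. The difference was 1.55 (SE 0.16, 2.92-fold, adjusted p = 1.01e-06).

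Gfap, the glial fibrillary acidic protein gene, was close to background in young controls. Its brightest probe was detected in 8 of 12 P17 controls, where it ran from 0.0038 to 0.55 with a median of 0.16. It was so in all 13 OIR mice, which ran from 0.44 to 1.51 with a median of 1.29. In 12 of 13 OIR mice Gfap lay above all controls, and the remaining mouse lay within the control range. The difference was 0.98 (SE 0.10, 1.97-fold, adjusted p = 1.18e-06). The processed ratio, which does not pull dim controls towards 0, gave 3.01 (SE 0.37, 8.07-fold, adjusted p = 6.95e-06), the largest of the 10 on that scale. The study itself lists Gfap among its most raised retinal genes of P17, from these same arrays, so this rise is no independent result. Gfap was also among the genes the study picked for its PCR check. The study reports no significant difference between the array and PCR results of the genes checked.

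Among the secreted proteins, Cp rose with the filament genes. Cp encodes ceruloplasmin, a copper-carrying ferroxidase that helps iron leave cells. P17 controls ran from -2.11 to -1.12 with a median of -1.60, and OIR mice from -0.90 to 0.15 with a median of -0.57. The groups did not overlap. The difference was 1.13 (SE 0.13, 2.19-fold, adjusted p = 3.90e-06).

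Lcn2, the gene of lipocalin 2, which binds iron-carrying siderophores, varied more between mice. P17 controls ran from -2.30 to -0.55 with a median of -1.25, and OIR mice from -1.40 to 0.12 with a median of -0.59. The ranges overlapped, with 6 of 13 OIR mice above all controls and 12 of 13 above the control median. The difference was 0.86 (SE 0.18, 1.81-fold, adjusted p = 0.0135).

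Serpina3n, which encodes a secreted serine protease inhibitor and is a common marker of reactive astrocytes, was detected on P17 in 7 OIR mice of 13 and in 0 controls of 12. OIR mice ran from -0.04 to 1.02 with a median of 0.08, and controls from -0.16 to 0.03 with a median of -0.04. Because it was detected in no control, its change has only a bound. Setting the OIR mean against the higher, on each control array, of the control signal and the lowest signal well above background, Serpina3n was at least 1.22-fold higher in OIR. That OIR mean includes the mice in which Serpina3n was not detected, so the bound is only rough. The mean log2 retina signal was 6.16 in OIR mice and 5.79 in controls. It did not pass the test on the offset ratio (adjusted p = 0.373). With processed ratios it passed (adjusted p = 3.41e-06), but no size is given for it, since the controls lay at background.

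Timp1, the tissue inhibitor of metalloproteinases 1 gene, overlapped widely between the groups. P17 controls ran from -4.13 to -1.89 with a median of -3.05, and OIR mice from -3.11 to -1.61 with a median of -2.42. Only 3 of 13 OIR mice lay above all controls, while 12 of 13 lay above the control median. The difference was 0.86 (SE 0.21, 1.81-fold, adjusted p = 0.0460), just inside the threshold. With the slide as a block it was 0.81 (adjusted p = 0.0804), and without the arrays of scan day 4, an alternative chosen after seeing the data, it was 0.50 (adjusted p = 0.318), so the call was lost in both. Processed ratios gave 1.69 (SE 0.24, 3.22-fold, adjusted p = 4.89e-05).

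Fgf2, the basic fibroblast growth factor gene, which glia release and which protects photoreceptors, was dim. On P17 it was detected in 4 OIR mice of 13 and in 0 controls of 12. OIR mice ran from 0.05 to 0.32 with a median of 0.10, and controls from -0.06 to 0.05 with a median of 0.02. The ranges met at 0.05 but did not overlap (limma on the offset ratio, adjusted p = 0.00654). By the same rough bound Fgf2 was at least 1.14-fold higher in OIR, with the undetected OIR mice again in the mean. The mean log2 retina signal was 6.10 in OIR mice and 5.87 in controls. It passed with processed ratios too (adjusted p = 6.68e-06), again with no size given against controls at background.

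A2m and Steap4 gave little to read. A2m, the gene of the broad protease inhibitor alpha-2-macroglobulin, was detected on P17 in 1 OIR mouse of 13 and in 0 controls of 12. It did not pass limma's test (adjusted p = 0.636), and no size is given, since nearly all mice lay at background. Steap4, a metalloreductase gene, was detected on none of the 77 arrays, so no difference is given for it.

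Counting separation rather than the test, the OIR mice of P17 lay above all controls without overlap for 4 of the 10 genes (Vim, Nes, Cp and Fgf2) and for 0.117% of all probes. With processed ratios 8 of the 10 passed, Serpina3n being the addition, against 2.64% of all probes. Of these, Serpina3n and Fgf2 were detected in no P17 control.

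**Figure D2:**
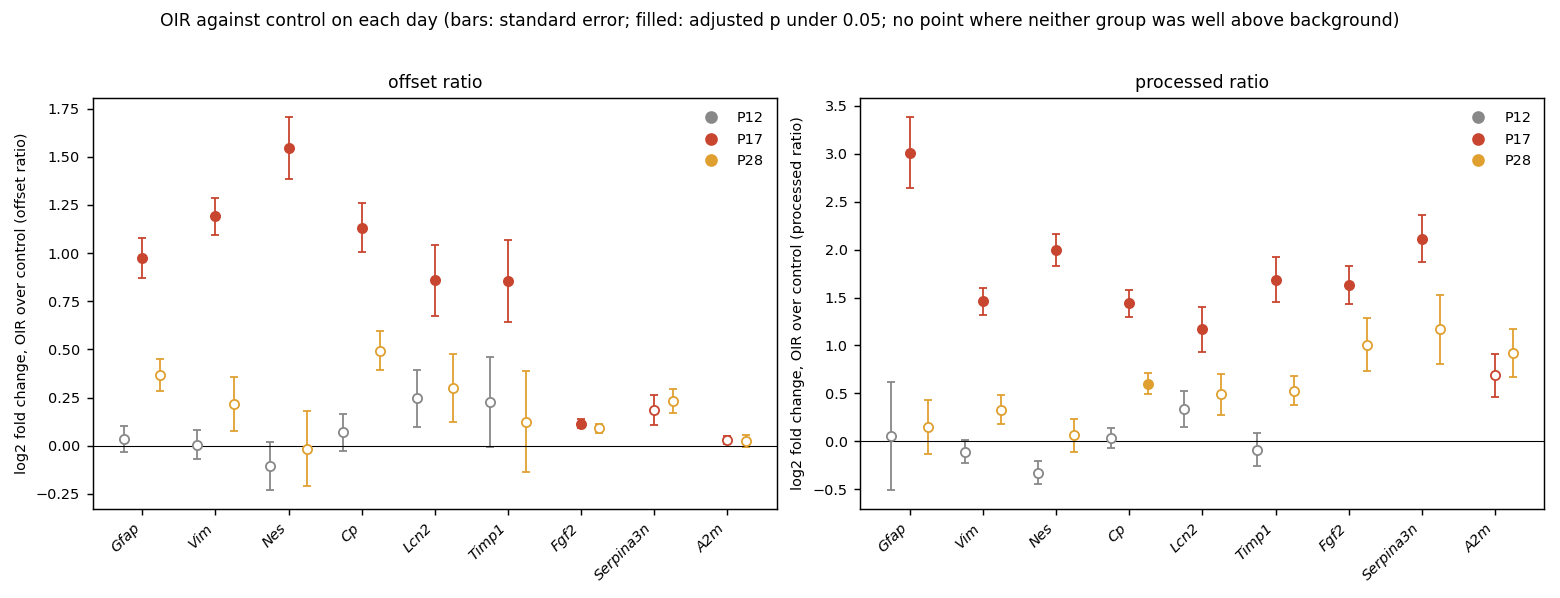
Log2 fold change, OIR over control (y axis), of each gene (x axis) on P12, P17 and P28, on the offset ratio (left) and the processed ratio (right), with SE as bars and filled where adjusted p was under 0.05. Genes detected in neither group of a day have no point, Serpina3n, Fgf2 and A2m on P17 are set against controls at background, and on P17 Gfap is at 0.98 on the left and at 3.01 on the right.

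On P12, after the oxygen exposure and before room air, no rise was seen. Differences ran from -0.10 (Nes, SE 0.13) to 0.25 (Lcn2, SE 0.15) among the 6 genes detected on that day, and 0 of 10 passed limma's test. At an unadjusted p under 0.05 the count was 1, A2m, which was detected in neither group, and over all probes it was 1741 of 55681. Gfap ran from -0.03 to 0.34 in controls (median 0.09) and from -0.12 to 0.59 in OIR mice (median 0.13), a difference of 0.04 (SE 0.068). Vim medians were -2.94 in controls and -2.92 in OIR mice, a difference of 0.0058 (SE 0.074). With processed ratios 0 of 10 passed too (0.07% of all probes), and Nes had the lowest unadjusted p, 0.0107, at -0.33.

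On P28 none of the 10 passed limma's test, and 4 had an unadjusted p under 0.05 (Gfap, Serpina3n, Cp and Fgf2), as had 4145 of all 55681 probes. Cp came closest: controls ran from -1.74 to -0.62 (median -1.52) and OIR mice from -1.29 to -0.43 (median -0.90). All 13 OIR mice lay above the control median, and the difference was 0.49 (SE 0.10, 1.41-fold, adjusted p = 0.0530). In processed ratio Cp passed (0.60, SE 0.11, 1.52-fold, adjusted p = 0.0124), the only 1 of the 10 to do so where 0.203% of all probes passed.

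Gfap on P28 ran from 0.23 to 0.61 in controls (median 0.37) and from 0.17 to 1.19 in OIR mice (median 0.68), a difference of 0.37 (SE 0.083, adjusted p = 0.118). Of the 13 OIR mice 12 lay above the control median. The processed ratio gave a smaller difference for this probe, 0.15 (SE 0.28, adjusted p = 0.896). For the other 2 probes of Gfap it gave larger ones, 1.33 (SE 0.48, limma adjusted p = 0.532) and 0.76 (SE 0.28, limma adjusted p = 0.539), which did not pass either.

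The other filament genes were close to controls by then. Vim medians were -3.73 in controls and -3.44 in OIR mice (difference 0.22, SE 0.14, adjusted p = 0.701). Nes medians were -2.89 and -2.76, and the difference of the means was -0.015 (SE 0.20, adjusted p = 0.984).

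Serpina3n, Fgf2 and A2m were detected in more mice on P28 than on P17, in both groups. Serpina3n was detected in 11 OIR mice of 13 and 9 controls of 14 (difference 0.23, SE 0.060, adjusted p = 0.245). Fgf2 was so in 11 and 9 mice (0.090, SE 0.024, adjusted p = 0.259), and A2m in 6 and 1 (0.025, SE 0.030, adjusted p = 0.799). Scan day 4, with its higher detection, held 11 of those OIR and 9 of those control arrays, and its part in these counts was not tested.

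Whether the OIR effect itself differed between days was tested in 1 fit over all 77 arrays. From P12 to P17 it grew for 5 of the 10 genes (0.487% of all probes changed): Nes by 1.65 (SE 0.24, adjusted p = 1.93e-06), Vim by 1.19 (SE 0.16, adjusted p = 2.33e-07), Cp by 1.06 (SE 0.16, adjusted p = 3.41e-06), Gfap by 0.94 (SE 0.12, adjusted p = 1.40e-07) and Fgf2 (adjusted p = 0.0202). Fgf2 was detected on no array of P12 or of P17 controls, so no size is given for it, and without the arrays of scan day 4 it no longer passed (adjusted p = 0.0612). From P17 to P28 the effect fell by 1.56 for Nes (SE 0.24, adjusted p = 1.47e-05), by 0.98 for Vim (SE 0.16, adjusted p = 5.83e-05), by 0.64 for Cp (SE 0.16, adjusted p = 0.0403) and by 0.61 for Gfap (SE 0.12, adjusted p = 0.00349), with 0.278% of all probes called. These contrasts share the P17 mice. The values of Gfap and Cp are those of their brightest probes, and their second probes, described below, passed in neither contrast. Between P12 and P28 the effect changed for 0 of 10 genes (0.0395% of all probes).

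On the processed ratio the growth from P12 to P17 passed for 7 genes (1.39% of all probes), now with Timp1 (1.78, adjusted p = 3.48e-06) and Serpina3n (adjusted p = 0.000960), the latter detected in P17 OIR mice alone of the 4 groups compared. From P17 to P28 the effect changed for 6 (0.584% of all probes), now with a fall for Timp1 (-1.16, adjusted p = 0.0145) and a call for Steap4, which was detected on no array.

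In the control mice alone, 3 of the genes were lower at the last age. From P17 to P28, Vim fell by 0.49 (SE 0.11, adjusted p = 0.00123), Nes by 0.71 (SE 0.17, adjusted p = 0.00180) and Timp1 by 0.89 (SE 0.24, adjusted p = 0.00779), where 13.4% of all probes changed, 5.39% downward. With the slide as a block they fell by 0.36, 0.51 and 0.57, still past the threshold, where 14.5% of all probes changed, 6.76% downward. With dim probes left out 27.4% of the probes tested changed, 11.6% downward, so a change with age was common and not particular to these genes. With processed ratios Nes fell by 0.72, but Vim (-0.36, adjusted p = 0.0578) and Timp1 (-0.36, adjusted p = 0.170) no longer passed. Cp was then higher on P28 by 0.33 (adjusted p = 0.0396), and Serpina3n and Fgf2, detected in no P17 control, were called upward (19.7% of all probes changed). The P28 controls lay mostly on scan day 4, whose part in these changes was not tested. From P12 to P17 none of the 10 changed in controls, against 1.28% of all probes.

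Ordered by their means, the 6 groups had P17 OIR at the top for Gfap, Vim, Nes, Cp, Lcn2 and Timp1. The next group down was P28 OIR for Gfap (lower by 0.42, adjusted p = 6.26e-05) and Cp (lower by 0.45, adjusted p = 0.000542). It was a P12 group for Vim (lower by 1.04, adjusted p = 1.80e-11), Nes (lower by 1.26, adjusted p = 6.54e-08), Lcn2 (lower by 0.66, adjusted p = 0.0110) and Timp1 (lower by 0.61, adjusted p = 0.218, which missed the threshold). Serpina3n, Fgf2 and A2m were highest in P28 OIR, with P17 OIR not differing beyond the spread for Serpina3n (adjusted p = 0.131) or Fgf2 (adjusted p = 0.683).

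The probes of a gene did not all move alike. Gfap has 3 probes. The representing probe matches the transcript listed as NM_010277, and the other 2 match NM_001131020. Its mean retina signal was 120.5, against 119.1 for the brighter of those 2, so the choice rested on a small margin. They were detected on 62 and 30 arrays. On P17 the brighter of those 2 ran from -0.04 to 0.20 in controls and from 0.04 to 1.57 in OIR mice, a difference of 0.23 (SE 0.11, adjusted p = 0.507). On P28 it differed by 0.60 (SE 0.15, adjusted p = 0.189), with OIR mice from 0.04 to 1.49 and controls from 0.06 to 0.64. Of the 13 OIR mice, 9 lay above all controls on that day. With this probe the growth of the Gfap effect from P12 to P17 did not pass (change 0.20, SE 0.16). The fall of the Gfap effect from P17 to P28 was not seen with it (change 0.37, SE 0.16, limma adjusted p = 0.307). The third probe was detected on 11 arrays and differed by 0.043 on P28. On P17 it was detected in 1 OIR mouse and in 0 controls, so no size is given for that day. The second probe of Cp, listed for NM_001276248 and detected on 53 arrays, differed by 0.045 on P17 (adjusted p = 0.754) and by 0.23 on P28 (adjusted p = 0.282). With this Cp probe the effect changed by 0.055 (SE 0.078) from P12 to P17, which did not pass. From P17 to P28 the change was 0.19 (SE 0.076, limma adjusted p = 0.294), not a fall. None of these 3 further probes passed on any day.

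**Figure D3:**
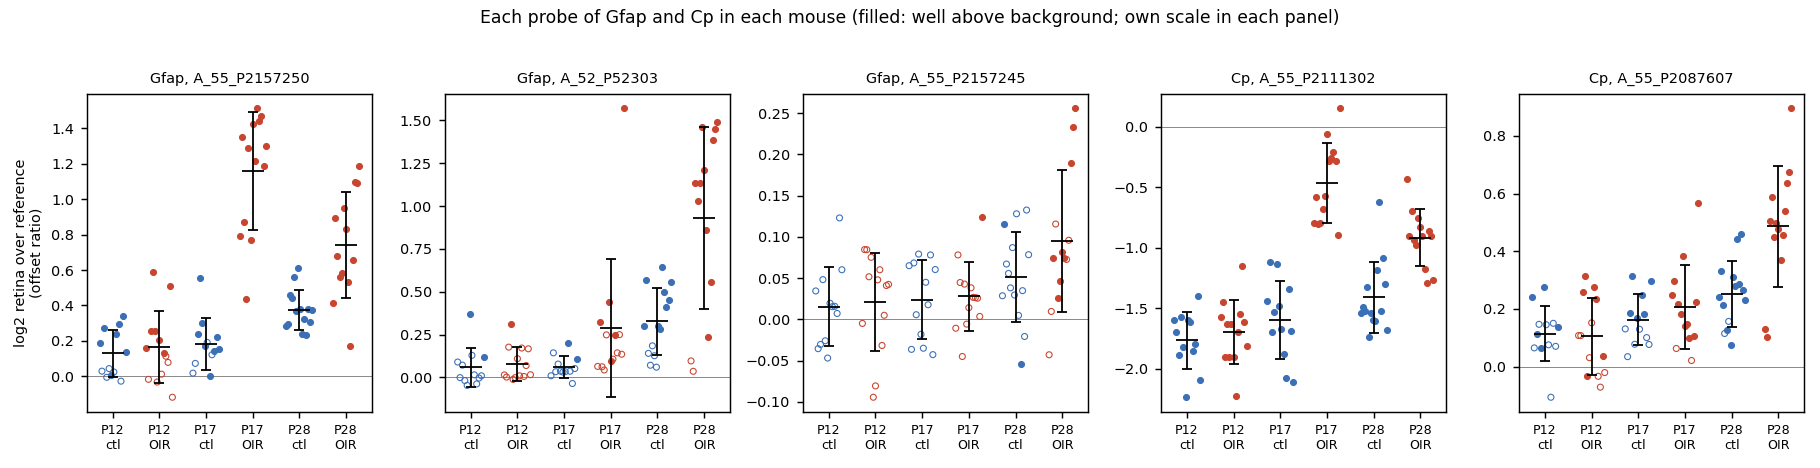
Log2 retina over reference (offset ratio, y axis) of each probe of Gfap and of Cp in the 6 groups (x axis), 1 point per mouse, with mean and SD as bars, and filled where detected. On P17 the brightest probes differ by 0.98 for Gfap and 1.13 for Cp, while both groups overlap on the other probes.

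The 77 arrays lay on 11 slides, and 6 slides held both groups of P17. Within these, OIR was higher on 6 of 6 slides for Gfap (0.78 to 1.09), Vim (0.61 to 1.59), Nes (1.03 to 2.06), Cp (0.63 to 1.77), Lcn2 (0.45 to 1.24), Timp1 (0.06 to 1.56) and Fgf2, and on 5 of 6 for Serpina3n. On the 3 slides that held both groups of P28, OIR was higher on all 3 for Gfap (0.27 to 0.50), Cp (0.26 to 0.70), Vim (0.20 to 0.46) and Nes (0.09 to 0.34). The same held for Lcn2, Serpina3n, Timp1 and A2m, while Fgf2 and Steap4 were higher on 2 of 3. On the 7 slides with both groups of P12, counts ran from 1 of 7 (Nes and Cp) to 7 of 7 (A2m, detected in neither group). No such share over all probes is given, so a shared direction on 3 slides alone says little. With the slide as a block, P28 gave 0.44 for Gfap (adjusted p = 0.0821), 0.38 for Cp (adjusted p = 0.183) and 0.17 for Nes. In the reference channel none of the 10 genes passed on any day.

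Within a group, mice with more Gfap did not reliably have more of the other genes. Of 54 relations between Gfap and another gene of the 10 within 1 group, 0 had adjusted permutation p-values under 0.05 for both Pearson's r and Spearman's rho. The highest was Nes in P17 OIR mice (r = 0.784, adjusted permutation p = 0.0581; rho = 0.610, adjusted permutation p = 0.185; n = 13). Without the 2 mice farthest from the Gfap median r was 0.564.

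Beyond the 10, a list of 29 other reactive glia genes held 3 that rose on P17 and none that fell, with a median of 0.23. Over all probes 0.81% rose, and the list was drawn up with earlier results of these data known. The 3 genes were Osmr (0.84, SE 0.14, adjusted p = 0.000867), the receptor chain for oncostatin M, Serping1 (0.74, SE 0.16, adjusted p = 0.0186), the C1 inhibitor, and S1pr3 (0.41, SE 0.072, adjusted p = 0.00181), a sphingosine 1-phosphate receptor. On P12 none of the 29 passed, and on P28 1 did, Serping1 (0.79, adjusted p = 0.0307), against 0.0216% and 0.0611% of all probes. With processed ratios 8 passed on P17 and 2 on P28, against 2.64% and 0.203% of all probes.

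Of 17 genes upstream of glial reactivity, 5 rose on P17 and none fell, with a median of 0.17, where 0.81% of all probes rose. The list was chosen with earlier results of these data known. Cebpd, Bcl3 and Edn2 are among the study's own most raised retinal genes of P17, so this count is no independent support. Cebpd, a transcription factor of the acute-phase response, rose by 2.65 (SE 0.27, adjusted p = 7.91e-07). Bcl3, a nuclear partner of NF-kB, rose by 1.69 (SE 0.23, adjusted p = 9.54e-05) and Edn2, the gene of endothelin 2, a signal from stressed photoreceptors to Müller cells, by 1.67 (SE 0.21, adjusted p = 1.60e-05). Stat3, the transcription factor of the interleukin 6 cytokine family, rose by 1.51 (SE 0.12, adjusted p = 6.79e-09) and its feedback inhibitor Socs3 by 0.86 (SE 0.14, adjusted p = 0.00104). Edn2 (1.36, adjusted p = 8.45e-06) and Cebpd (1.25, adjusted p = 0.00176) were still higher on P28, where 0.0557% of all probes rose. By its own values the study also lists Bcl3 among its most raised retinal genes of P28. The cytokine genes Il6, Osm, Il1b and Tnf were detected on no array.

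**Figure D4:**
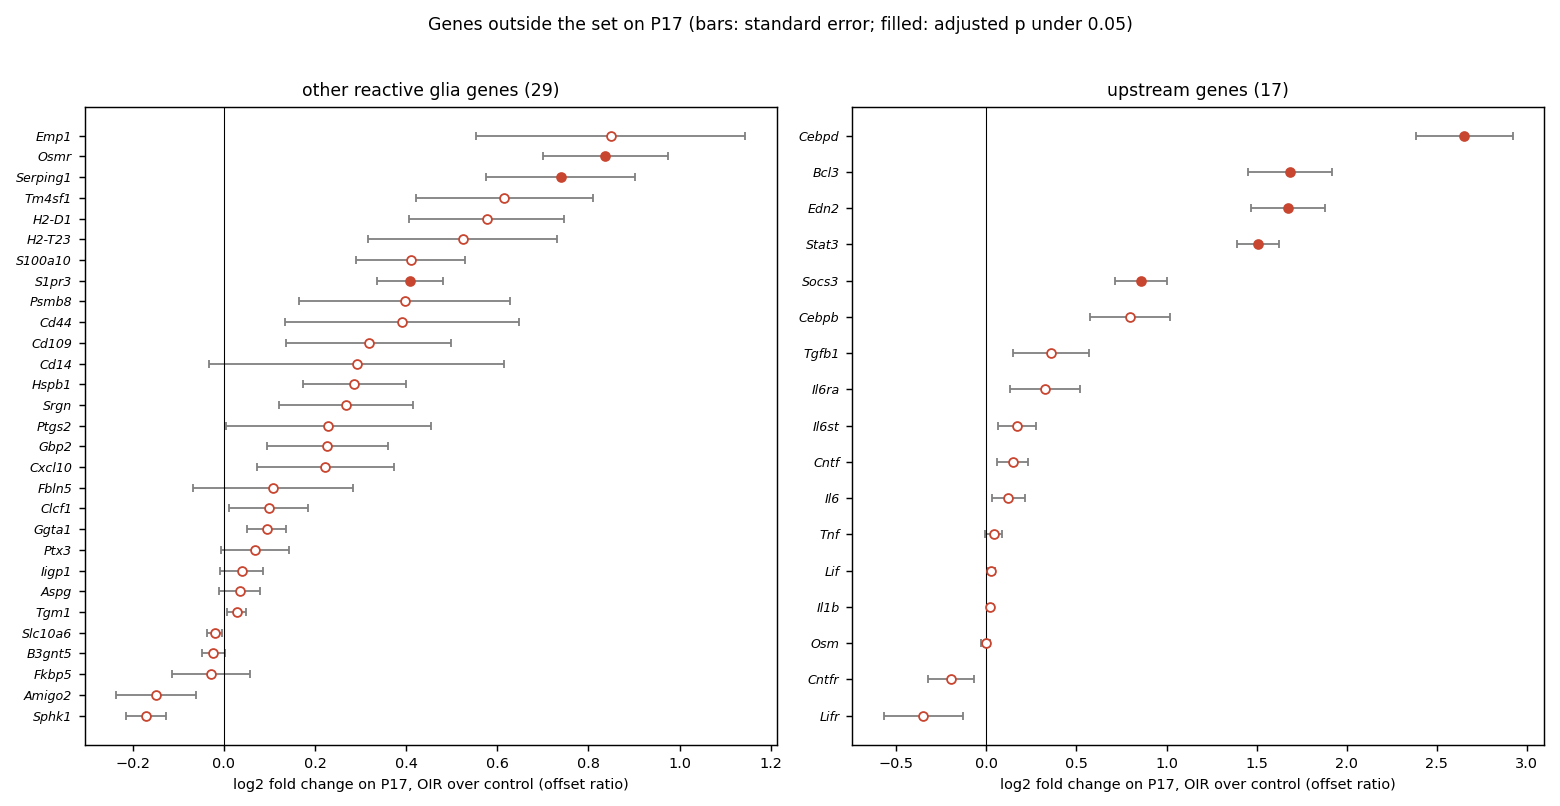
Log2 fold change on P17, OIR over control (offset ratio, x axis), of the 29 other reactive glia genes (left) and the 17 upstream genes (right), 1 gene per line, with SE as bars and filled where adjusted p was under 0.05. On the left 3 genes are filled and on the right 5, led by Cebpd at 2.65.

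Marker lists of cell types of the eye and blood were set beside these genes on P17. Over all probes 0.81% rose and 0.33% fell on that day. With the slide as a block 0.988% rose and 0.51% fell, and with processed ratios 1.67% and 0.973%. Of 10 Müller cell genes 0 passed, with a median difference of -0.36, and their mean level ran from 1.30 to 2.83 in controls and from 1.59 to 2.43 in OIR mice. With the slide as a block 2 of them fell, and with processed ratios 1. Of 6 astrocyte genes 1 rose, Aldh1l1 (0.41), and Pax2 was detected on no array. Of 10 microglia and macrophage genes 2 rose, Csf1r (0.51) and Aif1 (0.33), and the mean level of that list ran from -0.89 to -0.11 in controls and from -0.51 to -0.02 in OIR mice. With processed ratios 4 of that list rose, and 3 when the slide was a block.

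Of 7 neutrophil genes 0 passed, and Ngp and Ltf were detected on no array. Of 8 endothelial genes Cd34 rose (1.33), and of 7 mural cell genes Cspg4 rose (0.73). With the slide as a block 2 endothelial and 3 mural genes rose, and with processed ratios 1 and 3. The mean mural level ran from -0.61 to -0.32 in controls and from -0.35 to 0.05 in OIR mice. Rpe65 of 6 pigment epithelium genes (-0.81) and Bfsp2 of 6 lens genes (-0.31) fell, though with the slide as a block no pigment epithelium gene passed. Of 6 liver and blood plasma genes and of 5 rod genes 0 passed. The mean level of the 10 reactive glia genes ran from -1.45 to -0.74 in P17 controls and from -0.68 to -0.08 in OIR mice. The part of the microglial, vessel, pigment epithelium and lens markers in that rise was not tested.

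Among 11881 other genes detected on at least 39 arrays, some had nearly the same differences on all 3 days. By the smallest largest gap over P12, P17 and P28, Gfap was most like Slc25a37 (gap 0.023), H2-Ab1 and Rhoj, Vim like Tgm2 (0.11), Arpc1b and Lgals3, and Nes like Tubb6 (0.22), Msn and Crip1. Cp was most like 2610528A11Rik (0.10), Pbxip1 and Gadd45b, Lcn2 like Nab2 (0.11), Tnnt2 and H2-Ab1, and Timp1 like Flnc (0.040), Socs3 and Cebpb. Fgf2, which was not detected on P12 or in P17 controls and has offset ratios close to 0, was most like Prr15 (0.010), Grb10 and Denr.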

How the data were processed

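Total retinal RNA of 77 mice was labelled beside universal mouse reference RNA on 2-colour Agilent arrays. Per the file headers, the deposited scanner files hold spot and background intensity values read by the authors with Agilent Feature Extraction. The authors' deposited value table holds log2 ratios: for at least 99.66% of probes per array they equal log2 of processed Cy3 over Cy5 (tolerance 0.001), with array medians from -0.127 to 0.00993. The scanner's gene build was used only for names, and no array coordinates are given.

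Groups came from the labels. Median signals were background-corrected (normexp, offset 50) and loess-normalised within arrays with limma 3.58.1 (R 4.3.3), with control spots at weight 0 and outlier spots left out, and the spots of a probe were averaged. OIR was compared with control on each day in a separate limma fit, and days were compared in 1 fit over 6 groups, with Benjamini-Hochberg adjustment over all 55681 probes and a threshold of 0.05. Litter could not enter the fits. Correlations used 100000 permutations (scipy 1.17.1), adjusted over 54 relations. A gene not well above background on any array of a group has at most a bound. That bound is rough, because the mean of the other group includes its undetected arrays. All 10 genes were reported by their brightest probe, and of the other lists at most the 6 largest called genes. The genes, lists and tests were chosen with earlier results of these data known. The fits were tested on simulated data. The number of arrays limits the precision. Alternatives tried were the authors' processed values, an offset of 0, no background subtraction, quantile scaling of the mean intensity, the retina channel alone, the slide as a fixed or random block, array weights, a robust variance trend, outlier spots kept, 1 fit over all groups, dim probes left out and the mean of a gene's probes. Chosen after seeing the data were processed values with the slide as a block, and fits without scan day 4 (P12, P17) or on scan day 4 alone (P28).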

Additional observations from a re-analysis of the deposited data

Results flagged for a closer look

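The OIR effect differed between days past the threshold for 5 of the 10 genes, tested as a difference of effects in limma with adjustment over all probes. From P12 to P17 the difference was 1.65 for Nes (SE 0.24, adjusted p = 1.93e-06), 1.19 for Vim (SE 0.16, adjusted p = 2.33e-07), 1.06 for Cp (SE 0.16, adjusted p = 3.41e-06), and 0.94 for Gfap (SE 0.12, adjusted p = 1.40e-07). For Fgf2 the fit gave 0.12 (SE 0.028, adjusted p = 0.0202), but Fgf2 was detected on no array of P12 or of P17 controls, so this is no measured size, and without scan day 4 it missed the threshold (adjusted p = 0.0612). From P17 to P28 it was -1.56 for Nes (SE 0.24, adjusted p = 1.47e-05), -0.98 for Vim (SE 0.16, adjusted p = 5.83e-05), -0.64 for Cp (SE 0.16, adjusted p = 0.0403) and -0.61 for Gfap (SE 0.12, adjusted p = 0.00349). For Gfap and Cp these results rest on the brightest probe. From P12 to P17 the second probe gave 0.20 (SE 0.16) for Gfap and 0.055 (SE 0.078) for Cp. From P17 to P28 it gave 0.37 (SE 0.16) and 0.19 (SE 0.076), and none of these passed.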

How the results depend on the processing

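On P17 the count of the 10 genes past the threshold was 7, and 8 with the authors' processed values, an offset of 0 or the retina channel alone, and 6 with the slide as a block, 1 fit over all groups, dim probes left out or without scan day 4. Fgf2, A2m and Steap4 were themselves among the dim probes left out on P17, so they were not tested in that setting. On P28 it was 0, and 1 with processed values, without background subtraction, with dim probes left out, with the mean of a gene's probes or with the slide as a random block, 2 with array weights or the retina channel alone, and 3 in 1 fit over all groups (Gfap, adjusted p = 0.0363, Cp, 0.0230, and Fgf2, 0.0184). The change of the effect from P17 to P28 passed for 4 genes, and for 2 with the mean of a gene's probes. The change in controls from P17 to P28 passed for 3 genes, where 13.4% of all probes passed, and for 5 with array weights. Over all probes, the share called with the offset ratio, the processed values and the slide as a block was 0.0216%, 0.07% and 0.0287% on P12, 1.14%, 2.64% and 1.5% on P17, and 0.0611%, 0.203% and 0.219% at P28. For the change of the effect it was 0.487%, 1.39% and 0.943% from P12 to P17 and 0.278%, 0.584% and 0.39% from P17 to P28. Scan day 4 alone called 0.117% of probes at P28. With dim probes left out the share was 4.09% on P17 and 0.133% on P28, and without scan day 4 it was 0.867% on P17. No share is given for the remaining alternatives, so their counts of the 10 genes cannot be set against all probes.

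None of the differences within a day that turned direction, listed next, was past the threshold in either setting. On P12, Cp was -0.013 with processed values and the slide as a block, -0.012 with an offset of 0, and -0.039 with the slide as a block. Timp1 was -0.089 with processed values, -0.13 with these and the slide, -0.0030 in the retina channel and -0.022 with the slide. Vim was -0.11 with processed values, with or without the slide (-0.11), -0.056 without background subtraction, -0.063 with an offset of 0, -0.058 with the slide, -0.042 in the retina channel, -0.0094 with a random block and -0.019 without scan day 4. On P28, Nes was 0.0033 with array weights, 0.16 on scan day 4 alone, 0.063 with processed values, 0.31 with these and the slide, 0.016 without background subtraction, 0.043 with an offset of 0, 0.17 with the slide and 0.13 with a random block. Between days, the change of the Steap4 effect from P17 to P28 turned from -0.013 to 0.56 with processed values, where it passed (adjusted p = 0.00610), but Steap4 was detected on no array. Other changes turned with processed values without passing in either setting. Among them, Serpina3n went from 0.046 to -0.95 (P17 to P28), Timp1 from -0.10 to 0.61 (P12 to P28) and A2m from -0.0048 to 0.72 (P12 to P17). The cause was not tested. Apart from such turns, 464 single-gene values were counted as keeping direction and call, 16 as gaining a call and 14 as losing one. Quantile scaling of the mean intensity leaves ratios as they are. No paired analysis was possible because the labels tie no mouse of a group to a mouse of another group. Probes near background have offset ratios near 0, which limits what can be read for Serpina3n, Fgf2, A2m and Steap4.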
